A study of Sus scrofa with 8 samples.

Results

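The genes described here encode the subunits of the hypoxia-inducible factors (HIFs) and the hydroxylases that sense oxygen for them, measured by RNA-seq in the hearts of Tibetan and Yorkshire pigs. They were chosen by name from a list of 10: the alpha subunits *HIF1A*, *EPAS1* and *HIF3A*, the beta subunits *ARNT* and *ARNT2*, the prolyl hydroxylases *EGLN1*, *EGLN2* and *EGLN3*, the asparaginyl hydroxylase *HIF1AN* and the ubiquitin ligase subunit *VHL*. The table named 8 of the 10 among its 18975 genes. No row was found for *VHL*. A row that carries no symbol, but whose Ensembl ID a table of gene names pairs with *HIF1AN*, held 5 reads over all libraries and was not counted as a member. Of the 8 genes found, 7 reached 1 FPKM (fragments per kilobase of transcript per 1000000 mapped fragments) in at least 2 libraries and entered the tests with 11913 genes in all, whereas *ARNT2* did not.

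All pigs were males aged 6 months, and the hearts were compared in 4 groups: Tibetan pigs at 3000 m (TH), Tibetan pigs at 100 m (TL), Yorkshire pigs at 3000 m (YH) and Yorkshire pigs at 100 m (YL). Tibetan pigs are a native plateau breed, and Yorkshire pigs are a commercial breed of lowland origin. Each group had 2 libraries, and 4 pigs were pooled in each library, so that replicate error here is that of pools of animals. The pairs TH vs. YH and TL vs. YL compare the breeds at 1 altitude, and TH vs. TL and YH vs. YL compare the altitudes within 1 breed.

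HIFs are dimers of an oxygen-regulated alpha subunit and a stable beta subunit. When oxygen is available, the EGLN enzymes hydroxylate prolines of the alpha subunit, VHL binds the hydroxylated protein and the protein is degraded. HIF1AN hydroxylates an asparagine and blocks the recruitment of coactivators. In hypoxia the alpha subunits escape hydroxylation, accumulate and switch on genes of glycolysis, angiogenesis and erythropoiesis. Most of this control acts on protein, so transcript levels show the supply of each component and not the activity of the pathway. *EGLN3* and, in many cells, *EGLN1* are themselves HIF target genes, and *EPAS1* and *EGLN1* are known for selection in human populations and animals of high plateaus.

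The libraries held 15686819 to 26722605 reads on genes. Mitochondrial transcripts took 57.7% to 87.6% of all FPKM and were highest in TH1. YL2 stood apart from the others: its mean Spearman correlation with the other libraries was 0.824, against 0.869 to 0.917 for the rest. All 15 cardiomyocyte markers present in the table were at 1 FPKM or more in every library, as the label heart implies, but their summed level was 19500 FPKM in YL2 and 33400 to 57600 FPKM elsewhere. YL2 also held 26 of 26 kidney markers at 1 FPKM or more, with a sum of 12300 FPKM. The other libraries held 4 to 6 of them, with sums of 14.7 to 32.1 FPKM, and the defining markers *AQP6* and *PAX2* were listed at 0 there. Comparisons with YL are therefore also given without YL2 for the members and for the other genes named. In a bulk sample, fewer cells of a type and less RNA per cell cannot be told apart.

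*EPAS1* and *EGLN3* were the most abundant members, with means over the 8 libraries of 53.8 and 49.8 FPKM. They were followed by *EGLN1* (25.8 FPKM), *EGLN2* (17.2 FPKM), *HIF1A* (9.87 FPKM), *ARNT* (8.07 FPKM), *HIF3A* (1.89 FPKM) and *ARNT2* (0.531 FPKM). The ranges of *EPAS1* and *EGLN3* overlapped, as did those of *HIF1A* and *ARNT*. *EGLN1* and *EGLN2* did not overlap, since the lowest *EGLN1* level was 21.0 FPKM and the highest *EGLN2* level was 19.4 FPKM. *EGLN3* exceeded *EPAS1* in 3 libraries, YH1, YH2 and YL1, all of them Yorkshire. Among all tested genes, *EPAS1* ranked between the percentiles 87.1 and 92.6 of its library and *HIF3A* between 6.53 and 32.9.

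**Figure D1:**
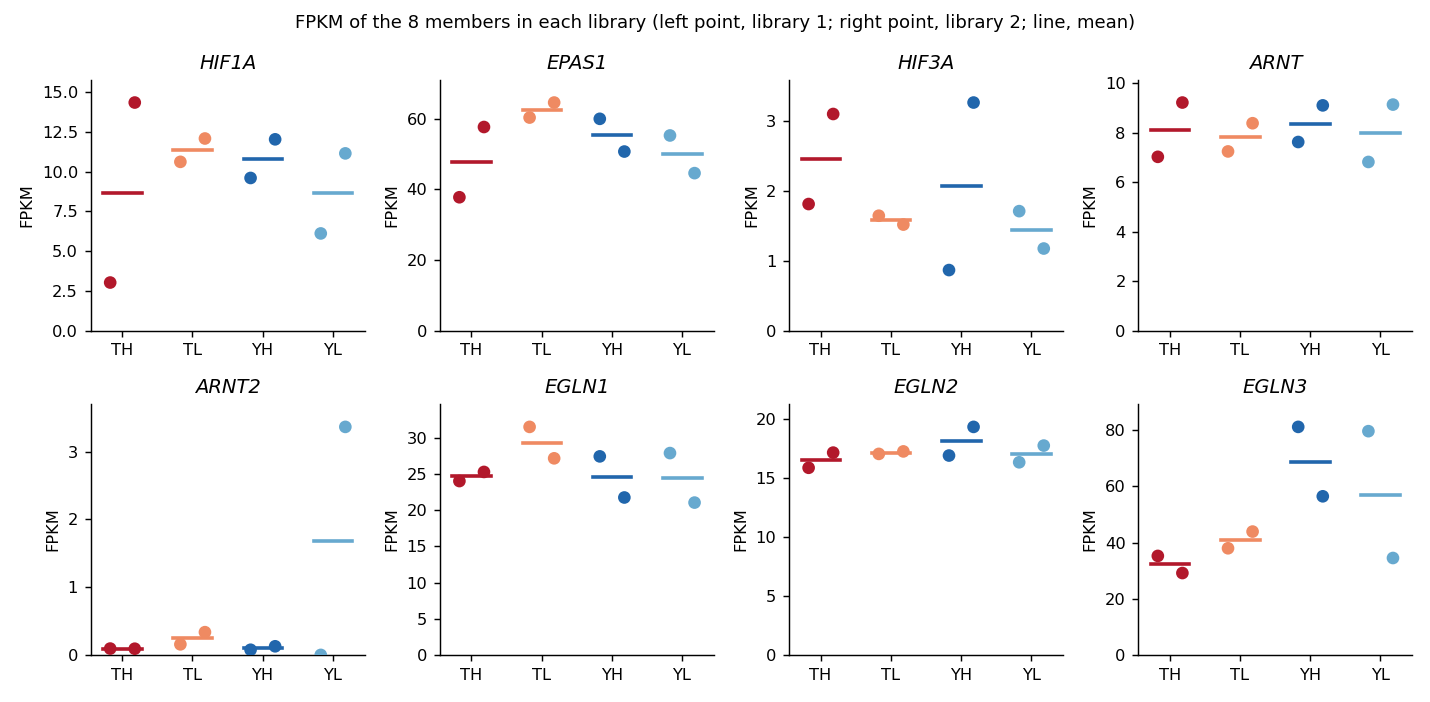
FPKM (vertical axes, each starting at 0) of the 8 members in the libraries of TH, TL, YH and YL. Points are libraries and lines are group means. *EGLN3* lies between 29.2 and 43.9 FPKM in the Tibetan libraries, and at 34.5 FPKM in YL2 against 56.5 to 81.2 FPKM in the other Yorkshire libraries.

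*EPAS1* encodes HIF-2 alpha, an alpha subunit prominent in endothelium and in the control of erythropoietin. It lies on chromosome 3 of Sscrofa10.2, from 100173611 to 100213334, under the identifier ENSSSCG00000008443. Its level was 37.7 and 57.6 FPKM in TH, 60.3 and 64.6 FPKM in TL, 59.9 and 50.7 FPKM in YH, and 55.2 and 44.6 FPKM in YL. The lowest library was TH1, both TL libraries were above both TH libraries and above both YL libraries, and the highest level was 1.71 times the lowest. Group means were 47.7 ± 14.1 (SD, n = 2) in TH, 62.4 ± 3.01 in TL, 55.3 ± 6.55 in YH and 49.9 ± 7.54 in YL. Depth was ample, with 3784 to 8432 reads on the gene in each library. Of 16 endothelial markers, 6 (*TEK*, *KDR*, *FLT1*, *VWF*, *EMCN* and *ESAM*) were lowest in TH1, as *EPAS1* was: *VWF* was at 1.07 FPKM there against 22.8 FPKM in TH2, and *FLT1* at 1.38 FPKM against 8.17 FPKM. Another 4 (*PECAM1*, *CLDN5*, *RAMP2* and *ECSCR*) were highest in the TH libraries, and the sum of all 16 was 416 to 480 FPKM in the Tibetan libraries and 256 to 423 FPKM in the Yorkshire libraries. The part of endothelial content in the *EPAS1* levels was not tested.

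*HIF1A* encodes HIF-1 alpha, the broadly expressed alpha subunit that drives glycolytic genes. It lies on chromosome 1, from 212130957 to 212179888 (ENSSSCG00000005096). Its level was 3.02 and 14.4 FPKM in TH, 10.6 and 12.1 FPKM in TL, 9.60 and 12.04 FPKM in YH, and 6.11 and 11.2 FPKM in YL. The 2 TH pools thus held both the lowest and the highest level of the series, 4.75-fold apart, and the 4 groups overlapped with each other. The lowest level rested on 171 reads, against 671 reads in TH2. TH1 was also the library with the highest mitochondrial share, whose part in this level was not tested.

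*HIF3A* encodes HIF-3 alpha, some isoforms of which restrain the other alpha subunits. It lies on chromosome 6, from 47607502 to 47631684 (ENSSSCG00000003101). Its level was 1.81 and 3.10 FPKM in TH, 1.65 and 1.52 FPKM in TL, 0.867 and 3.27 FPKM in YH, and 1.71 and 1.18 FPKM in YL. The YH pools were the lowest and the highest, and of the 4 pairs compared, TH vs. TL was the one without overlap. With 51 to 251 reads per library it had the lowest depth of the tested members.

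*ARNT* encodes the common beta subunit, also called HIF-1 beta, and lies on chromosome 4, from 107586819 to 107638503 (ENSSSCG00000006646). Its level was 7.03 and 9.22 FPKM in TH, 7.24 and 8.39 FPKM in TL, 7.63 and 9.11 FPKM in YH, and 6.82 and 9.14 FPKM in YL. The groups overlapped in every pair, and the highest library exceeded the lowest 1.35-fold. *ARNT2*, a beta subunit best known in the nervous system and kidney, lies on chromosome 7, from 54813732 to 54837749 (ENSSSCG00000001781). It had 0 to 5 reads in 7 libraries and 60 reads in YL2, where its level was 3.37 FPKM against at most 0.336 FPKM elsewhere. YL2 is the library with the kidney markers described above, whose part in the *ARNT2* level was not tested, and no difference between groups was computed for this gene.

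*EGLN1* encodes PHD2, regarded as the main oxygen sensor of the 3 prolyl hydroxylases. It lies on chromosome 14, from 63787306 to 63840383 (ENSSSCG00000010172). Its level was 24.0 and 25.3 FPKM in TH, 31.5 and 27.2 FPKM in TL, 27.4 and 21.7 FPKM in YH, and 27.9 and 21.0 FPKM in YL. Both TL libraries were above both TH libraries, and the other groups overlapped. *EGLN2* encodes PHD1 and lies on chromosome 6, from 44685811 to 44694279 (ENSSSCG00000002995). It was the steadiest member, at 15.9 and 17.2 FPKM in TH, 17.1 and 17.3 FPKM in TL, 16.9 and 19.4 FPKM in YH, and 16.4 and 17.8 FPKM in YL. Its highest level was only 1.22 times its lowest.

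*EGLN3* encodes PHD3, the prolyl hydroxylase that is most readily induced by hypoxia in cultured cells and is abundant in heart. It lies on chromosome 7, from 70667588 to 70695692 (ENSSSCG00000001963). Its level was 35.2 and 29.2 FPKM in TH, 38.0 and 43.9 FPKM in TL, 81.2 and 56.5 FPKM in YH, and 79.7 and 34.5 FPKM in YL. Both TH libraries were below both YH libraries, whereas TL lay between the 2 YL libraries. Group means were 32.2 ± 4.31 (SD, n = 2) in TH, 40.9 ± 4.21 in TL, 68.8 ± 17.5 in YH and 57.1 ± 31.9 in YL, and the gene had 1491 to 4946 reads in each library. Once YL2 was left out, *EGLN3* was the only tested member whose breeds did not overlap, at 29.2 to 43.9 FPKM in the 4 Tibetan libraries and 56.5 to 81.2 FPKM in the 3 remaining Yorkshire libraries. This separation of the breeds held for 14.6% of all tested genes in the same libraries.

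Differences were fitted with limma on the log2(FPKM + 1) scale, which understates changes of low genes, and a member was called a differentially expressed gene (DEG) at an adjusted p under 0.01 (Benjamini-Hochberg over all tested genes) with a log2 fold change over 1 in either direction. A positive value means that the first group was higher. No member was a DEG in any of the 7 comparisons, which comprised the 4 pairs, the averages over altitudes and over breeds, and the interaction of breed and altitude. Under limma, the share of all tested genes called in this way was 0.0336% in TH vs. YH, 0.00839% in TL vs. YL, 0.0504% in TH vs. TL, 0% in YH vs. YL, 0.0336% for the interaction, 0.0504% for the breed average and 0.0336% for the altitude average. Calls were thus rare in the series as a whole. An exact permutation test of 2 libraries against 2 cannot give a two-sided p below 0.33, so no such test was made for single pairs.

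At an unadjusted p under 0.05 (limma), 1 of the 7 tested members passed in TH vs. YH and 1 for the breed average, *EGLN3* in both, and 0 passed in the other comparisons. The background shares at this threshold were 16.2% in TH vs. YH, 8.94% in TL vs. YL, 11.3% in TH vs. TL, 5.97% in YH vs. YL, 10.9% for the interaction, 13.5% for the breed average and 7.22% for the altitude average. A share of 1 in 7 is close to these.

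In TH vs. YH, the comparison of the breeds at high altitude, *EGLN3* had a log2 fold change of −1.06 (SE 0.41), and its group mean in YH was 2.14 times that in TH. The difference was larger than the spread within either group but missed the adjusted threshold (limma, unadjusted p = 0.0359, adjusted p = 0.278). Over the alternatives that leave out no library, the adjusted p was 0.189 to 0.4 (limma). The SE is drawn from all 4 groups, so the YL pools, which lay far apart for *EGLN3*, enter it. With only TH and YH fitted, the SE was 0.28 and the adjusted p was 0.21 (limma). The difference kept its direction without each of the TH and YH libraries in turn, between −1.31 and −0.80. Leaving out a TL or YL library cannot move it. *HIF1A* had a log2 fold change of −0.58 (SE 0.60, limma adjusted p = 0.653), which rested on TH1: without that library it was 0.38, and without TH2 it was −1.55. The other 5 tested members lay between −0.24 and 0.27. *EGLN3* was the 1 member of 7 whose groups did not overlap, against 52.5% of all tested genes.

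In TL vs. YL, the comparison of the breeds at low altitude, all 7 tested members lay between −0.36 and 0.41, and 5 of them were higher in TL. The value for *EGLN3* was −0.36 (SE 0.41, limma adjusted p = 0.837, 0.379 to 1.0 over the alternatives), and it rested on which YL pool was used. Without YL2 it was −0.95, and without YL1 it was 0.24. Without YL2 the other 6 members lay between −0.07, for *HIF3A*, and 0.79, for *HIF1A*, and again 5 of 7 were higher in TL. *EPAS1* was the 1 member of 7 whose groups did not overlap, against 41.5% of all tested genes.

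In TH vs. TL, which compares the altitudes within the Tibetan breed, *HIF1A* had the value furthest from 0, at −0.65 (SE 0.60, limma adjusted p = 0.733). It changed sign without TH1, to 0.32, and was −1.62 without TH2. The other 6 members lay between −0.41, for *EPAS1*, and 0.40, for *HIF3A*. *EPAS1*, *EGLN1* and *EGLN3* were lower in both TH libraries than in both TL libraries, and *HIF3A* was higher. These 4 of 7 members without overlap compare with 48.5% of all tested genes. The *EPAS1* difference was −0.71 without TH2 and −0.11 without TH1.

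In YH vs. YL, which compares the altitudes within the Yorkshire breed, the 7 tested members lay between 0.01 and 0.36, all of them on the side of YH, while 54.0% of all tested genes were higher in YH. None passed the test, and 0 of 7 had groups that did not overlap, against 36.3% of all tested genes. The value at the top, 0.36 for *EGLN3* (SE 0.41, limma adjusted p = 0.846, 0.110 to 1.0 over the alternatives), turned to −0.23 without YL2 and was 0.95 without YL1. The shared direction did not hold without YL2, where only 4 of 7 members were higher in YH, with *EGLN1* at −0.18, *EPAS1* at −0.0028 and *HIF1A* at 0.73. Without YL1 it broke as well, with *HIF1A* at −0.05 and *ARNT* at −0.12. So it did without YH2, with *HIF3A* at −0.38 and *EGLN2* at −0.01. Each of the 7 members changed sign with some library left out.

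**Figure D2:**
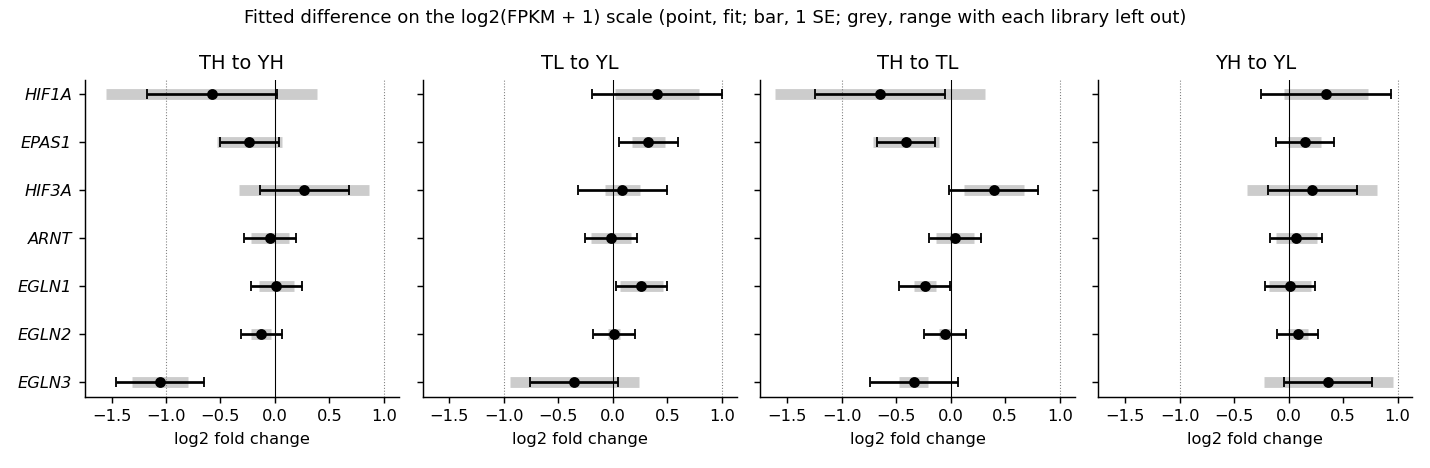
Log2 fold change on the log2(FPKM + 1) scale (horizontal axes) of the 7 tested members in the 2 comparisons of breeds and the 2 comparisons of altitudes. Points are the fitted values, black bars are 1 SE, grey bars span the values with each library left out in turn, and dotted lines mark the threshold of 1. Among the members, only *EGLN3* in TH vs. YH passes −1, and the grey bars of *HIF1A* cross 0 in both comparisons with TH.

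Averaged over the altitudes, *EGLN3* was the only member beyond 0.5 in size, with a Tibetan minus Yorkshire value of −0.71 (SE 0.29, limma unadjusted p = 0.0442, adjusted p = 0.359, 0.0782 to 0.761 over the alternatives). It was −1.0 without YL2 and −0.41 without YL1. The other 6 members lay between −0.09 and 0.18, or −0.03 and 0.11 without YL2, and with all libraries 0 of 7 members had breeds that did not overlap, against 8.03% of all tested genes. Averaged over the breeds, the 7 members lay between −0.16 and 0.31 for highland minus lowland, or −0.29 and 0.23 without YL2, and 0 of 7 had altitudes that did not overlap, against 2.69% of all tested genes.

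The interaction term, which is the breed difference at high altitude minus that at low altitude, was −0.99 (SE 0.84) for *HIF1A*, −0.70 (SE 0.57) for *EGLN3* and −0.56 (SE 0.38) for *EPAS1*, with adjusted p-values of 0.661, 0.651 and 0.599 (limma). Each of them depended strongly on 1 library. *HIF1A* was at −0.02 without TH1, *EGLN3* at −0.11 without YL2 and −1.29 without YL1, and *EPAS1* at −0.26 without TH1. Without YL2, *HIF1A* was at −1.38 and *EPAS1* at −0.41. The remaining 4 members lay between −0.25 and 0.18, or −0.21 and 0.34 without YL2. The members' median was −0.25, and that of all tested genes was −0.01.

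Ratios between members of the same library do not depend on how libraries are scaled. The ratio of *EGLN3* to *EGLN1* in FPKM was 1.47 in TH1, 1.15 in TH2, 1.21 in TL1 and 1.62 in TL2, and it was 2.96 and 2.60 in the YH libraries, 2.86 in YL1 and 1.64 in YL2. All Tibetan libraries were therefore below all Yorkshire libraries, although YL2 was barely above TL2. The ratio of *EGLN3* to *EGLN2* was 2.22 in TH1, 1.70 in TH2, 2.22 in TL1 and 2.54 in TL2, against 4.79 and 2.92 in the YH libraries, 4.87 in YL1 and 1.94 in YL2, and here YL2 fell among the Tibetan libraries. Both ratios are described without a test.

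*EGLN3* supplied 46.9% and 40.7% of the summed prolyl hydroxylase FPKM in TH and 43.9% and 49.7% in TL. In Yorkshire pigs it supplied 64.7% and 57.9% in YH, and 64.3% and 47.1% in YL. The sum itself was 71.6 to 88.4 FPKM in the Tibetan libraries, 97.6 to 126 FPKM in YH1, YH2 and YL1, and 73.3 FPKM in YL2. *EGLN2* was nearly level, and the higher sums of YH1, YH2 and YL1 went with their higher *EGLN3*. Within the Tibetan libraries *EGLN1* contributed to the differences in the sum too, at 24.0 FPKM in TH1 and 31.5 FPKM in TL1.

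**Figure D3:**
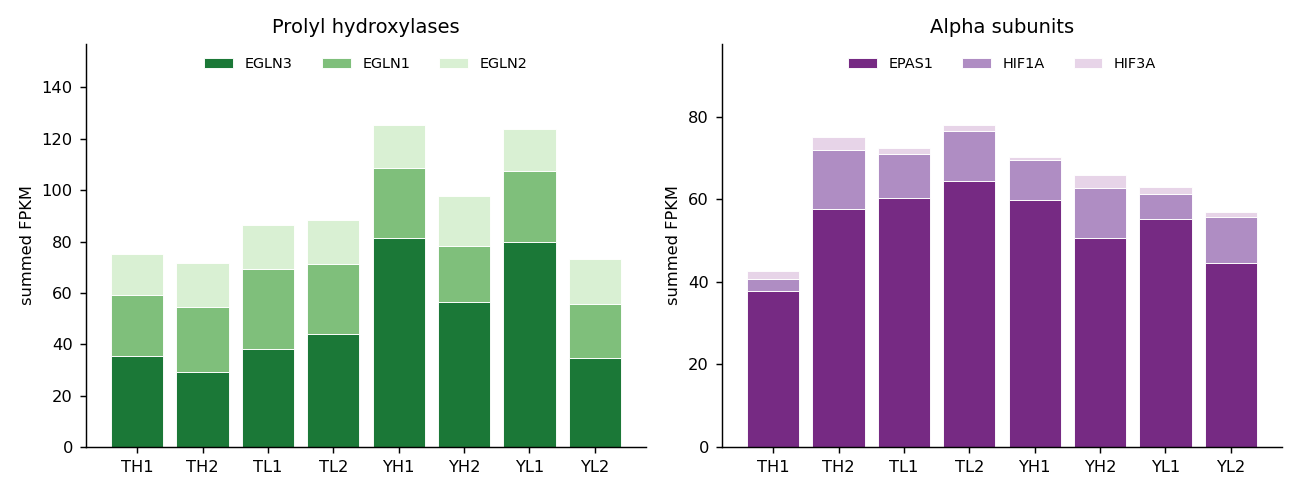
Summed FPKM (vertical axes, starting at 0) of the 3 prolyl hydroxylases and of the 3 alpha subunits in each of the 8 libraries, stacked by gene. *EGLN3* makes up 40.7% to 49.7% of the prolyl hydroxylase sum in the Tibetan libraries, and *EPAS1* makes up 76.8% to 88.6% of the alpha subunit sum in every library.

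Among the alpha subunits, *EPAS1* supplied 76.8% to 88.6% of the summed FPKM in every library. The ratio of *EPAS1* to *HIF1A* reached 12.5 in TH1 and 9.03 in YL1, the libraries with the lowest *HIF1A*, while their partners TH2 and YL2 were at 4.02 and 4.0. The TL libraries were at 5.68 and 5.34, and YH1 and YH2 at 6.24 and 4.21. The pools within TH and within YL were thus further apart than those within TL or YH. The summed alpha subunits exceeded *ARNT* 6.06-fold to 10-fold.

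The genes whose levels ran most like those of 3 members were found by Pearson correlation of log2(FPKM + 1) over the 8 libraries, among about 4270 genes with a mean of at least 10 FPKM. These are descriptions of 8 points that share libraries and depth. For *EGLN3* they were *CXCL10*, an interferon-induced chemokine (0.960, and 0.960 without YL2), *PAF-AH*, a platelet-activating factor acetylhydrolase (0.960 and 0.961), and *RXRG*, a retinoid X receptor (0.959 and 0.972). *CXCL10* was at 138 FPKM in YH1 and 366 FPKM in YL1, the 2 libraries with the highest *EGLN3*, and at 3.17 to 21.5 FPKM in the others. For *EPAS1* they were *SLC35A4* (0.973 and 0.968), *NUDCD3* (0.958 and 0.954) and *TADA2B* (0.957 and 0.975). For *HIF1A* they were ENSSSCG00000011227, which has no symbol (0.968 and 0.972), *CSE1L*, a nuclear export factor (0.957 and 0.974), and *HNRNPR*, an RNA-binding protein (0.953 and 0.953), and all of them were lowest in TH1.

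Other genes of the pathway were read from 4 lists: regulators of HIF (19 tested of 30 listed), HIF target genes (56 of 67), other 2-oxoglutarate-dependent oxygenases, the enzyme class of the EGLN proteins (42 of 55), and relatives of the HIF subunits that share their bHLH-PAS domains (10 of 17). Counted once, 120 genes were tested, and 0 were DEGs in any comparison (limma). At an unadjusted p under 0.05 the counts were as follows in the 4 pairs, where the shares of all tested genes were 16.2%, 8.94%, 11.3% and 5.97% as above. Among the HIF targets, 2 were higher and 3 lower in TH vs. YH, 2 higher and 2 lower in TL vs. YL, 3 higher and 1 lower in TH vs. TL, and 1 higher and 1 lower in YH vs. YL. Their medians were 0.01, 0.13, −0.06 and 0.08, beside −0.03, 0.02, −0.02 and 0.03 for all tested genes. Without YL2 the targets' medians were 0.06 in TL vs. YL and −0.01 in YH vs. YL. Among the 4 lists and 4 pairs, the bHLH-PAS relatives in TL vs. YL had the median furthest from that of all tested genes. It was −0.29, with 2 of 10 higher in TL, or −0.24 without YL2. Among the regulators, 2 were higher and 1 lower in TH vs. YH, and 1 higher and 1 lower in TH vs. TL, with 0 in the other pairs. Among the other oxygenases, 2 were higher and 2 lower in TH vs. YH, 1 higher and 2 lower in TL vs. YL, 0 in TH vs. TL, and 2 lower in YH vs. YL. Among the bHLH-PAS relatives, 1 was lower in TL vs. YL. In TH vs. YH the shares were thus 15.8% of the regulators, 8.93% of the targets, 9.52% of the other oxygenases and 0% of the bHLH-PAS relatives, none above the share of all tested genes. The largest list share in the other pairs was 10.5%, for the regulators in TH vs. TL, below that of all tested genes there, and the 1 of 10 bHLH-PAS relatives in TL vs. YL was just above the 8.94% of all tested genes.

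Since no list gene passed the adjusted threshold, those named here are the extremes among genes with groups that did not overlap, with adjusted p-values of 0.134 or more (limma). *TFRC*, the transferrin receptor, was at 61.0 and 65.2 FPKM in TH and 68.8 and 65.6 FPKM in TL, against 34.6 and 23.4 FPKM in YH and 35.5 and 27.1 FPKM in YL. Its Tibetan libraries were all above its Yorkshire libraries, and its log2 fold change in TH vs. YH was 1.12 (SE 0.26, limma adjusted p = 0.141). *CITED2*, which competes with HIF alpha subunits for the coactivator p300, was at 16.6 and 29.5 FPKM in TH and 45.7 and 52.0 FPKM in YH (−1.10, SE 0.33, limma adjusted p = 0.199). Among the targets in TH vs. YH, *PLIN2*, a lipid droplet protein, was at −1.30, *GBE1*, the glycogen branching enzyme, at −1.29, and *ADM*, adrenomedullin, at 0.79.

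Among the regulators in TH vs. YH, *NAA10*, an acetyltransferase, was at 1.45, *GNB2L1*, which encodes the scaffold RACK1, at 0.83, and *P4HTM*, a transmembrane prolyl hydroxylase, at −0.44. Among the other oxygenases, *PHYHD1* was at 2.45, the collagen prolyl hydroxylase subunit *P4HA2* at 0.72, the histone demethylase *KDM6A* at −0.94 and *LEPREL1* at −0.49. *PER1*, a clock gene, was at 0.51 among the bHLH-PAS relatives.

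In TL vs. YL, *PPP1R3C*, a glycogen-targeting subunit of protein phosphatase 1, was at 1.48 and *PDGFB*, a growth factor, at 1.11. *PLIN2* was at −2.13 and *ANGPTL4*, an inhibitor of lipoprotein lipase, at −1.45. The regulators *SIAH2*, a ubiquitin ligase for EGLN proteins, and *RUVBL2* were at 0.52 and 0.27. The oxygenases *KDM4B* and *PHYH* were at 0.41 and 0.37, and *P4HA1* and *KDM6A* at −0.55 and −0.39. Without YL2, *PLIN2* was at −1.30, *ANGPTL4* at −0.98, *SIAH2* at 0.28 and *PHYH* at 0.60, and the others kept their direction at 0.95 to 1.36 for the targets, 0.32 for *RUVBL2*, 0.37 for *KDM4B*, −0.80 for *P4HA1* and −0.55 for *KDM6A*. No regulator whose groups did not overlap was lower in TL.

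In TH vs. TL, *ANGPTL4* was at 1.88, while *GBE1* was at −1.16 and *PPP1R3C* at −0.83. The regulators *NAA10* and *HSP90AA1*, a chaperone of HIF-1 alpha, were at 1.24 and 0.90, and *CITED2* and *P4HTM* at −0.98 and −0.71. Among the oxygenases, *PHYHD1* was at 0.95, *P4HA2* at 0.37 and *PHYH* at −0.46, and *PER1* was at −0.23. In YH vs. YL, *PDK1*, the kinase that restrains pyruvate dehydrogenase, was at 1.13 and *PLIN2* at 1.02, while *ADM* was at −0.91 and *MIF*, a cytokine, at −0.73. *CITED2* was at 0.36, and the regulators *TCEB2*, which encodes elongin B, and *EP300*, which encodes p300, were at −0.21 and −0.16. Of the oxygenases, *ALKBH3* and *PHF2* were at 0.37 and 0.26, and *PHYHD1* and *P4HA1* at −1.43 and −0.64. The lower values of *ADM*, *MIF* and *PHYHD1* rested largely on YL2, where these genes were at 15.8, 466 and 40.7 FPKM against 5.66, 245 and 12.6 FPKM in YL1. Without YL2 they were at −0.24, −0.26 and −0.62, while *PDK1* was at 0.85, *PLIN2* at 1.86, *CITED2* at 0.37, *TCEB2* at −0.37, *EP300* at −0.08, *ALKBH3* at 0.24, *PHF2* at 0.10 and *P4HA1* at −0.89.

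**Figure D4:**
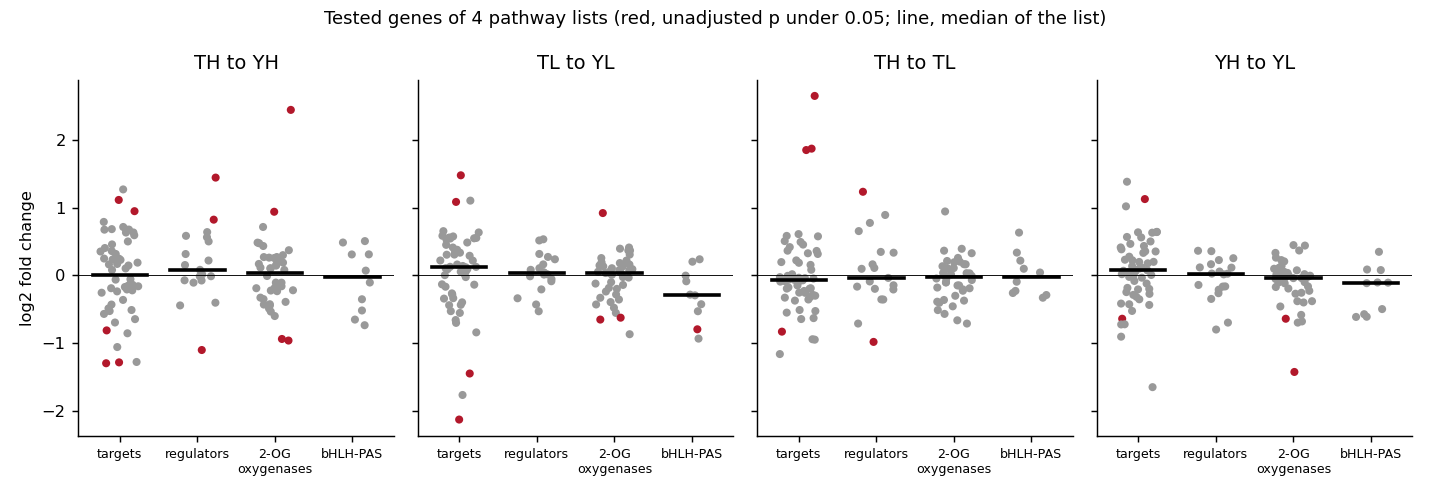
Log2 fold change on the log2(FPKM + 1) scale (vertical axis) of the tested genes in the 4 pathway lists, by comparison. Each point is a gene, red points have an unadjusted p under 0.05 (limma) and lines are list medians. The medians of the HIF targets lie between −0.06 and 0.13.

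Some marker genes also differed between the groups in which *EGLN3* and *HIF1A* were compared. Of 9 atrial markers, *NPPA*, *MYL7* and *SLN* were higher in both TH libraries than in all others and set the list's sum, 6800 and 5570 FPKM in TH against 474 to 2790 FPKM elsewhere, whereas *TBX5* and *KCNJ3* were lower in TH than in TL. Of 6 smooth muscle markers, *DES*, *CNN1* and *TAGLN* were higher in TH than in all others. *DES*, which cardiomyocytes also express, made up 84.3% to 96.5% of that list's sum, which was 9490 and 6100 FPKM in TH and 1030 to 3640 FPKM elsewhere, while *MYH11* was lowest in TH1. The sum of 14 early response genes was 586 to 828 FPKM in the Tibetan libraries and 130 to 198 FPKM in the Yorkshire libraries. *JUNB*, *IER2*, *KLF2* and *MYC* were among the genes of this list whose breeds overlapped. The ratio of *EGLN3* to *EGLN1* divided the libraries like the sum, but with 1.62 in TL2 against 1.64 in YL2. The sum of 7 red cell markers divided the breeds too, at 3100 and 1630 FPKM in TH, 1230 and 1400 FPKM in TL and 531 to 1070 FPKM in the Yorkshire libraries, with *HBB*, *ALAS2* and *AHSP* higher in TH than in all others. *HBB* made up 45.8% to 59.0% of this sum and *HBA* nearly all of the rest, and *HEMGN* was lower in TH than in YH. The sum of 6 macrophage markers was lowest in TH, at 35.7 and 37.0 FPKM against 47.1 to 72 FPKM, which followed *C1QA*, whereas *CD68* and *CD14* were higher in TH than in TL. The sum of 10 fibroblast markers was lowest in TH1, at 210 FPKM against 250 to 815 FPKM elsewhere, but only 4 of the 10 (*COL3A1*, *DCN*, *PDGFRA* and *FBLN1*) were lowest there, and *COL1A2* and *LUM* were higher in TH1 than in every Yorkshire library. The part of these in the members' levels was not tested.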

How the data were processed

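Heart RNA of 8 libraries was sequenced. The authors aligned reads to Sscrofa10.2 with TopHat2 2.0.9, used Cufflinks for FPKM and DESeq 1.10.1 for DEGs, and they deposited 1 table with FPKM and a second signal per gene, read counts multiplied by the authors with a library factor. That signal was divided by the most frequent low value of its library, taken as 1 read, to give the reads quoted here (99.8% of low values were whole within 0.1). In 7 libraries some values lay below this step, so no count test was run. The table's 8 columns of group means and ratios, which hold the authors' comparisons, and the group files were not used.

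The table gave symbols for 14256 genes, and 1025 more were named through their Ensembl IDs. The descriptions of YL1 and YL2 name the TL table, but their title, breed and source say YL, which was followed. FPKM were analysed as log2(FPKM + 1) for the 11913 genes that reached 1 FPKM in 2 or more libraries, in 1 limma 3.58.1 model of 4 group means with trend (R 4.3.3; 4 residual and 2.83 prior degrees of freedom), two-sided, with Benjamini-Hochberg adjustment. The script was tested on simulated data. Thresholds were an adjusted p of 0.01 and a log2 fold change of 1. FPKM hold no counting interval, and p-values measure the spread between pools.

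The members and lists were chosen with earlier results of these data known. Fits are given singly for members with a log2 fold change over 0.5 in size and for a few others, mostly of *EGLN3*, and the rest by their range. From each list, up to 2 of the highest and 2 of the lowest genes are named per pair, among those with groups that did not overlap and a mean of at least 5 FPKM. A gene that this rule names is not reported here. Alternatives were a pseudocount of 0.1, no filter, a mean of at least 10 FPKM, median-ratio scaling (2878 genes), an FPKM sum of 1000000, no trend, a replicate block, only the groups compared, an adjusted p of 0.05, each library left out, and, added after seeing the data, limma on the scaled reads.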

Additional observations from a re-analysis of the deposited data

How the results depend on the processing

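The number of members called stayed at 0 under every alternative run (123 values over the 7 comparisons), and 197 of 208 log2 fold changes of the 12 pairs of member and comparison recomputed in full (of 49) kept their direction. Many of the 208 could not differ from the main fit. The filters, the trend, the block, the threshold and fitting only the groups compared leave a fold change as it is. Leaving out a library of a group outside the comparison does so too. Over all 49 pairs, 30 changed sign with some library left out. The *EGLN3* difference in TH vs. YH fell under 1 in size without YH1 (−0.80), without TH2 (−0.92) and on scaled reads (−0.92), and without TH2 *HIF1A* passed 1 in TH vs. YH (−1.55), in TH vs. TL (−1.62) and for the interaction (−1.96, from −0.99). The *HIF1A* interaction also passed 1 elsewhere, as with a pseudocount of 0.1 (−1.14) and without YL2 (−1.38). With FPKM sums of 1000000, the interactions of *EGLN3* (−1.24) and *EPAS1* (−1.10) passed 1. So did the *EGLN3* interaction without YL1 (−1.29) and the *EGLN3* breed average without YL2 (−1.002). With each library left out in turn, *HIF1A* ranged from −1.55 to 0.38 in TH vs. YH and from −1.62 to 0.32 in TH vs. TL, and *EGLN3* ranged from −0.95 to 0.24 in TL vs. YL and from −0.23 to 0.95 in YH vs. YL. The *EGLN3* altitude average, 0.01, was −0.0741 with median-ratio scaling, −0.25 with FPKM sums of 1000000, −0.0222 on scaled reads and −0.29 to 0.31 with each library left out. The cause was not tested.

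Scaling FPKM sums moved the median of all tested genes to −0.50 in TH vs. YH and −0.39 for the breed average, and *EGLN3* to −1.90 and −1.28. The genes called over the whole table, 4 in TH vs. YH, 1 in TL vs. YL, 6 in TH vs. TL, 0 in YH vs. YL, 4 for the interaction, 6 for the breed average and 4 for the altitude average, then became 38, 97, 30, 69, 40, 65 and 34 in this order. On scaled reads limma called 0 throughout. At an adjusted p under 0.05 they were 31 in TH vs. YH, 12 in TH vs. TL and 54 for the breed average. A mean of at least 10 FPKM gave 10 for the breed average, fitting only the groups compared gave 2 in TL vs. YL and 11 in TH vs. TL, and a pseudocount of 0.1 gave 1 in YH vs. YL. Without YL1 they were 305 in TL vs. YL and in YH vs. YL, 13 in TH vs. TL, 152 for the interaction, 227 for the breed average and 166 for the altitude average, and without YL2 they were 3 in TL vs. YL, 13 in TH vs. TL, 7 for the interaction, 10 for the breed average and 7 for the altitude average. Without TH1, TH2, YH1 or YH2 they were 2 in TL vs. YL, and without YH2 they were 1 in YH vs. YL.

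Nothing in the labels pairs the libraries, and same-numbered libraries deviated together with correlations of −0.0844 to 0.118 over 6 pairs of groups. With the replicate block, *EGLN3* in TH vs. YH had an adjusted p of 0.249 (limma), and no member call changed. The planned edgeR and DESeq2 alternatives were not run, since 7 of 8 libraries hold scaled values below the step of 1 read. With 2 pools per group, 1 pool decided several values. *HIF3A* and *ARNT2* had the fewest reads of the members.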
